A study of Mus musculus with 157 samples.

Results

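The response of Tfeb-Tg bone marrow-derived macrophages to monosodium urate crystals (MSUc) was taken from 6 RNA sequencing libraries of the 157 samples in the series, 3 from Tfeb-Tg cells given MSUc and 3 from Tfeb-Tg cells given PBS. They were chosen by their labels alone, and all 24940 genes of the deposited table were read, of which 11991 were tested. The 5 libraries of TfebWT cells from the same experiment, 3 with MSUc and 2 with PBS, served for comparison. Marrow was grown in DMEM with 16 ng/mL of macrophage colony-stimulating factor (M-CSF), the cells were replated on day 6, and crystals were given at 250 µg/mL. The exposure time of this experiment, the promoter that drives the transgene, the age of the mice and the number of mice behind each library are not given in the sources used here. Nothing in the labels says that libraries of 1 group came from separate mice or cultures, so the p-values below measure the spread between these libraries, which may be technical.

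TFEB is a transcription factor of the MiT/TFE family. As background, it is held in the cytoplasm when the kinase complex mTORC1 is active on the lysosome, and moves to the nucleus when lysosomes are stressed or damaged, where it binds an E-box within the CLEAR element and raises genes for lysosomes, autophagy and its own negative feedback. Urate crystals, the particles of gout, are taken up by macrophages into phagosomes and damage lysosomes, so particle uptake joins an inflammatory response with a lysosomal one. The comparison here asks what MSUc did to cells that already carried extra TFEB.

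The 11 libraries held 5.75 to 22.11 M reads on the transcripts kept in the table, with the lowest total in Tfeb-Tg MSUc replicate 1, and no 2 libraries of a group were copies of each other. Levels are in TPM, in which a read count is divided by the length of its transcript and set to a fixed sum per library. Changes are differences of log2(TPM + 1) between group means, Tfeb-Tg MSUc over Tfeb-Tg PBS unless stated, each with its SE from limma. A gene is said to have risen or fallen where its Benjamini-Hochberg adjusted p, two-sided and over all genes tested, was under 0.05. TPM is a share of each library. The median change of all genes tested was -0.28, and it was -0.04 after rescaling each library by its median ratio to the others. Counts after this rescaling are given beside the counts as deposited. TfebWT MSUc replicate 3 is MSUc by its title and PBS in its treatment field, and was grouped by its title. Of 231 genes that differed strongly between the other TfebWT libraries, this library lay nearer to MSUc in 217.

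The cells carried macrophage transcripts in both conditions. Adgre1, which encodes F4/80, had 313 to 340 TPM in Tfeb-Tg MSUc libraries and 398 to 399 TPM in Tfeb-Tg PBS libraries, and Csf1r, the M-CSF receptor, had 548 to 687 TPM with MSUc and 935 to 1070 TPM with PBS.

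Tfeb itself was high in every Tfeb-Tg library and higher still after MSUc. It had 200.9, 298.9 and 240.3 TPM in the 3 Tfeb-Tg MSUc libraries, against 86.52, 79.97 and 75.12 TPM in the Tfeb-Tg PBS libraries. TfebWT cells had 28.91, 30.71 and 25.49 TPM with MSUc and 44.43 and 43.68 TPM with PBS. All 6 Tfeb-Tg values lay above all 5 TfebWT values, which checks the genotype labels, and the MSUc and PBS values did not overlap within either genotype. Tfeb averaged 246.7 ± 49.3 TPM in Tfeb-Tg MSUc libraries and 80.54 ± 5.72 TPM in Tfeb-Tg PBS libraries (SD, n = 3 each), a rise of 1.59 ± 0.13 (limma adjusted p = 2.69e-06). In TfebWT cells Tfeb fell by 0.62 (SE 0.14, limma adjusted p = 0.00475). The values are for RefSeq transcript NM_011549 (mm10, chr17:47785744-47792416, plus strand), on which reads of the transgene and of the mouse's own gene cannot be told apart.

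The relatives of TFEB moved by less. Tfec, whose product can pair with the other family members, rose by 0.67 ± 0.17, and Mitf, the founding member of the family, fell to 17.45, 14.83 and 14.43 TPM in Tfeb-Tg MSUc libraries against 23.83, 24.24 and 27.68 TPM in Tfeb-Tg PBS libraries. Tfe3, a relative that binds the same E-box, had 38.76, 44.89 and 46.17 TPM with MSUc and 60.65, 61.95 and 59.43 TPM with PBS. Its fall of 0.48 (SE 0.08) did not pass the test after rescaling, where the change was -0.21.

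About as many genes changed after MSUc in Tfeb-Tg cells as did not. Of 11991 genes tested, 1502 rose (12.5%) and 4199 fell (35.0%) in limma, and after rescaling 2451 rose (20.4%) and 1980 fell (16.5%), so the excess of falls over rises rests on the scaling. The counts of each gene list below are to be read beside these shares. With TfebWT MSUc replicate 3 taken as PBS, which enters this comparison through the shared estimate of spread, 947 rose and 2318 fell. Of genes changed by at least 1 on the log2 scale 493 rose and 881 fell, of those changed by at least 2 111 rose and 78 fell, and of those changed by at least 4 all 4 rose. The MSUc and PBS values of a gene did not overlap in 6707 genes, 55.9% of those tested, and in 5502 of the genes called. In bulk RNA, fewer cells of a type and less RNA per cell cannot be told apart.

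The 10 largest rises among genes with a mean of at least 5 TPM, an NM accession, a transcript of at least 300 bases and no overlap between groups were, in order of size, those of Cxcl2, Gem, Flrt3, Edn1, Cxcl1, Csrnp1, Rtn4r, Il1rn, Maff and Tnfsf14. Cxcl2, a chemokine that draws neutrophils, had 220.4, 206.9 and 191.3 TPM in Tfeb-Tg MSUc libraries and 4.725, 3.185 and 4.926 TPM in Tfeb-Tg PBS libraries, a change of 5.31 ± 0.13 (limma adjusted p = 4.42e-10). Cxcl1, another chemokine for neutrophils, had 22.07, 14.43 and 22.01 TPM with MSUc and 0.245, 0.815 and 0 TPM with PBS. Il1rn, the secreted antagonist of the interleukin 1 receptor, had 540.4, 501.5 and 502 TPM with MSUc and 36.55, 33.25 and 37.19 TPM with PBS, which made it the most abundant transcript of the 10. Edn1, the precursor of the vasoconstrictor endothelin 1, had 16.89, 12.55 and 20.31 TPM with MSUc and 0, 0 and 0.159 TPM with PBS. Tnfsf14, the T cell ligand LIGHT, rose by 3.66 ± 0.19. For those near 0 in PBS the fitted size depends on the pseudocount of 1.

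Gem, a small GTPase that restrains calcium channels, had 48.75, 40.54 and 44.16 TPM with MSUc and 0.771, 0.762 and 0.251 TPM with PBS, a change of 4.85 ± 0.16. Flrt3, an adhesion protein, changed by 4.05 ± 0.12, Csrnp1, a nuclear protein induced by AXIN1, by 3.89 ± 0.17, and Rtn4r, the Nogo receptor, by 3.84 ± 0.29. Maff, a small MAF factor without an activation domain, changed by 3.69 ± 0.25.

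The 10 largest falls among genes that met the same conditions as the rises included receptors and regulators of resting macrophages. Of all genes called, 12 fell by at least 3 on the log2 scale, so larger falls lay outside these conditions. Tlr8, an endosomal receptor for RNA, had 9.88, 7.142 and 8.008 TPM in Tfeb-Tg MSUc libraries and 66.19, 68.79 and 75.72 TPM in Tfeb-Tg PBS libraries, a change of -2.94 ± 0.12 (limma adjusted p = 1.48e-08). Cx3cr1, the fractalkine receptor, had 2.932, 4.543 and 2.888 TPM with MSUc and 29.77, 34.09 and 29.63 TPM with PBS. Bmf, a BH3-only protein that promotes apoptosis, had 0.505, 0.765 and 0.365 TPM with MSUc and 10.46, 13.1 and 12.06 TPM with PBS, the largest fall of the 10 at -3.06 ± 0.18. Tnfaip8l2, also called TIPE2, a brake on Toll-like and T cell receptor signalling, had 16.74, 15.03 and 17.86 TPM with MSUc and 124.5, 126.1 and 106.2 TPM with PBS. That the MSUc and PBS values of these 4 genes do not overlap was a condition of their choice, and 55.9% of all genes tested met it.

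The other 6 falls were of similar size. Tifab, a TIFA-related inhibitor of TRAF6 signalling, fell by 2.81, Pou2f2, the octamer factor OCT2, by 2.80, and Mxd4, an antagonist of MYC for the partner MAX, by 2.95. Hpgd, which breaks down prostaglandins, fell by 2.92, Fabp7, a fatty acid binding protein, by 2.99, and Kctd12b, a potassium channel tetramerization domain protein, by 2.82. All 20 of these largest rises and falls also passed the test, in the same direction, in TfebWT cells.

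**Figure D1:**
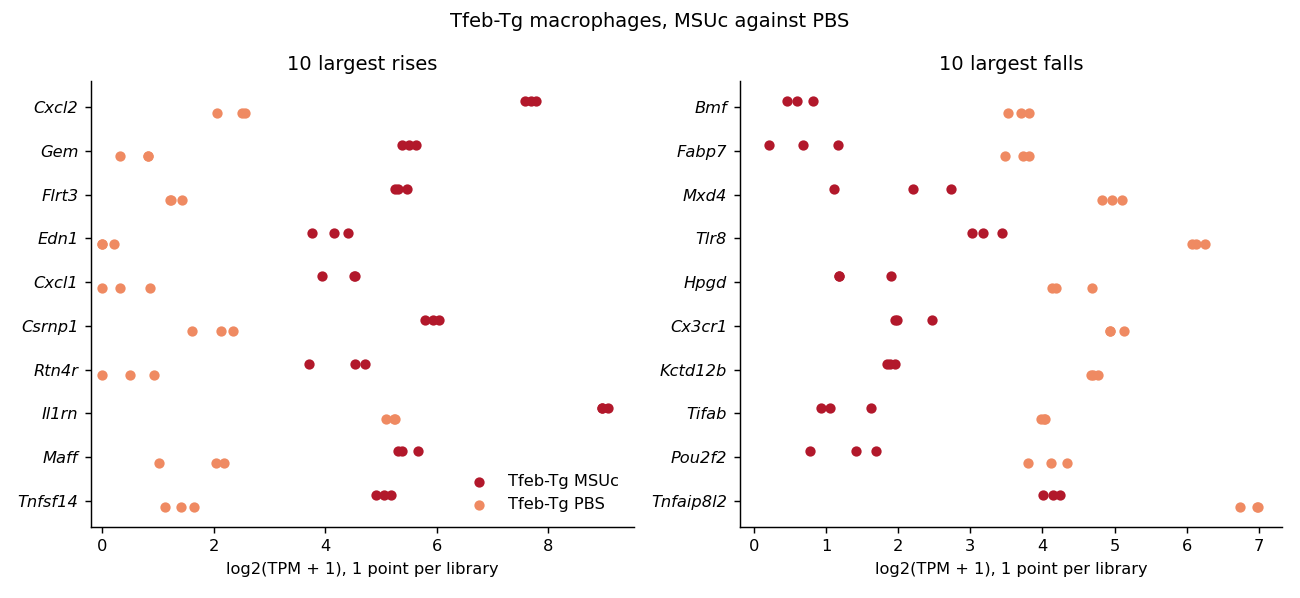
Levels in each Tfeb-Tg library of the 10 genes with the largest rises and the 10 with the largest falls after MSUc, as log2(TPM + 1). The genes were taken from those that met the level, accession, length and overlap conditions given in the text. Points are single libraries, with MSUc drawn above PBS for each gene, and groups without overlap were a condition of the choice.

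The vacuolar ATPase acidifies lysosomes with a peripheral V1 domain that hydrolyses ATP and a membrane V0 domain that passes protons. Of 8 V1 genes tested 6 rose and none fell, with a median change of 0.48 against -0.28 for all genes. Atp6v1h, the regulatory H subunit, led with 287.2, 237.3 and 270.9 TPM in Tfeb-Tg MSUc libraries and 77.29, 84.43 and 110.1 TPM in Tfeb-Tg PBS libraries (change 1.55 ± 0.12). Atp6v1d and Atp6v1c1, subunits of the stalks, changed by 0.87 ± 0.07 and 0.63 ± 0.07. Of 9 V0 and accessory genes 4 rose and 2 fell, and after rescaling 6 rose and none fell. Atp6v0d1, a V0 subunit on the cytosolic side, had 254.3, 281.3 and 250.5 TPM with MSUc and 194.9, 200.9 and 216.4 TPM with PBS.

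The folliculin and Rag group tells mTORC1 that amino acids are present and sends TFEB back to the cytoplasm. Of 12 members 6 rose and 4 fell, and after rescaling 6 rose and 1 fell. Those that rose included Rragd, a Rag GTPase and itself a textbook TFEB target, with 21.45, 19.45 and 21.49 TPM in Tfeb-Tg MSUc libraries and 11.78, 11.76 and 12.23 TPM in Tfeb-Tg PBS libraries. Flcn changed by 0.44, and its partners Fnip1 and Fnip2 by 0.74 and 0.75. The members that fell were Lamtor1, Lamtor2, Lamtor4 and Lamtor5, which anchor the Rag GTPases to the lysosome, by 0.44 to 0.78, whereas Lamtor3 rose by 0.76. After rescaling Lamtor2 alone of these 4 falls passed the test.

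The enzymes inside the lysosome moved in both directions. Of 41 hydrolases 8 rose and 9 fell, with a median of 0.01 against -0.28 for all genes, and after rescaling 20 rose and 4 fell. Of all genes tested 12.5% rose and 35.0% fell, and after rescaling 20.4% rose and 16.5% fell. Gla, alpha-galactosidase A, had 281.5, 286.3 and 290.4 TPM in Tfeb-Tg MSUc libraries and 166.4, 165.9 and 184.8 TPM in Tfeb-Tg PBS libraries, a change of 0.73 ± 0.06. Sgsh, which removes sulfate from heparan sulfate, went the other way, with 9.379, 9.778 and 7.974 TPM with MSUc and 30.05, 27.78 and 27.5 TPM with PBS (change -1.55 ± 0.12). Ctsd, the aspartic protease cathepsin D and one of the most abundant transcripts of these cells, had overlapping groups and a change of 0.00 ± 0.07, which was 0.28 after rescaling. Of 21 lysosomal membrane genes 8 rose and 7 fell, and after rescaling 12 rose and 4 fell, led upward by Slc11a1, the metal ion exporter NRAMP1, at 0.87 ± 0.08, and downward by Tpcn1, an endolysosomal cation channel, at -1.49 ± 0.12.

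Of 29 autophagy genes 6 rose and 10 fell, a share of falls near the 35.0% of all genes tested, and after rescaling 10 rose and 6 fell. Sqstm1, the receptor p62 that brings ubiquitinated cargo to autophagosomes, had 1780, 2145 and 1981 TPM in Tfeb-Tg MSUc libraries and 689, 719.3 and 633.8 TPM in Tfeb-Tg PBS libraries (change 1.53 ± 0.08). Optn and Tax1bp1, which also encode cargo receptors, changed by 1.12 and 0.92. Ulk1 and Ulk2, the kinases that start autophagy, changed by -0.71 and -1.18, and Ulk1 did not pass the test after rescaling.

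The E-box was counted in promoters that RefSeq lists for these genes (GRCm38.p6, 250 bases before to 50 after the start site, a table that held 9197 of the genes tested). CACGTG, which reads the same on both strands, lay in a promoter of 17.92% of 1161 genes that rose, 10.34% of 3316 that fell, 12.03% of 4720 not called and 12.17% of all 9197, and in 7.15% of all 32851 promoters in the table. GTCACGTG, the core of the CLEAR element and a longer form that contains CACGTG, searched on both strands, lay in 7.41% of genes that rose, 3.98% of those that fell, 5.21% of those not called and 5.05% of all tested, and in 2.25% of all promoters. A gene was counted if any of its promoters held the motif, so shares of genes and of single promoters are not on 1 scale. CACGTG was found in 12 of 33 hydrolase genes, 5 of 17 lysosomal membrane genes and 5 of 11 folliculin and Rag genes. It was in 3 of 7 V0 and accessory, 1 of 4 V1, 4 of 23 autophagy and 0 of 4 MiT/TFE genes. Among lists of other themes, it was in 3 of 6 dendritic cell markers, 4 of 10 clock genes and 4 of 12 synthetases. The promoters of Gla (chrX:134600956-134601255, minus strand) and Atp6v0d1 (chr8:105566015-105566314, minus strand) are shown 5′ to 3′ since both genes rose and both hold the longer form. Capitals mark CACGTG, which begins 227 and 194 bases upstream of the Gla start and 3 bases upstream of the Atp6v0d1 start.
Gla: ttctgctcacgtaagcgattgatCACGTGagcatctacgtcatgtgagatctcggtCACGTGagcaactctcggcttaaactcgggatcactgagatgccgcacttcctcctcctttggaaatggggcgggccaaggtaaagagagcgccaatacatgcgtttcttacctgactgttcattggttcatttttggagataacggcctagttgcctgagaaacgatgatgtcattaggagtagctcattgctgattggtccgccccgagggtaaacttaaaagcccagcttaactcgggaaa
Atp6v0d1: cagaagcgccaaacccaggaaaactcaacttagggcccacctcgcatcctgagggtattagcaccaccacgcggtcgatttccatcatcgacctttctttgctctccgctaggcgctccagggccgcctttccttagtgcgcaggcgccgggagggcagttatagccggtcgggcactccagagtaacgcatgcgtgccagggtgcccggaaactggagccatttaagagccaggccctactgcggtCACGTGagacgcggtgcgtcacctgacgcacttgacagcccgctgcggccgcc

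Of 24 immediate early transcription factors 20 rose and 2 fell, with a median of 1.30, and Nr4a2, an orphan nuclear receptor, had 14.87, 12.15 and 11.63 TPM in Tfeb-Tg MSUc libraries and 0.841, 0.561 and 0.5 TPM in Tfeb-Tg PBS libraries. Fos and Klf2, a factor of quiescent macrophages, were the 2 that fell, of which Klf2 also did so after rescaling. Of 15 chemokines 9 rose and 1 fell, with a median of 1.59. Ccl3, which draws monocytes, had 750.2, 870.1 and 755.9 TPM with MSUc and 118.2, 125.7 and 106.4 TPM with PBS, and Ccl7, another monocyte chemokine, changed by 3.01 ± 0.11. The 1 chemokine that fell was Cxcl16, by 0.90.

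Cytokines and inflammasome genes did not move as 1 group. Of 23 tested 13 rose and 5 fell, and after rescaling 13 rose and 2 fell. Those that rose most after Il1rn were Gdf15, a stress cytokine, with 336, 664.1 and 580.7 TPM in Tfeb-Tg MSUc libraries and 46.81, 42.98 and 36.51 TPM in Tfeb-Tg PBS libraries, Osm (change 3.27 ± 0.13) and Csf1 (2.64 ± 0.11). Tnf changed by 1.22 and Il1b by 0.71. Pycard, the inflammasome adaptor ASC, fell by 1.39, Gsdmd, the pore protein of pyroptosis, by 0.69, and Il18 by 1.31. Nlrc4 and Aim2 fell by 0.67 and 0.44. The falls of Gsdmd, Nlrc4 and Aim2 did not pass the test after rescaling. Of the other inflammasome genes, Nlrp3 rose by 0.50 and Casp4 by 0.63, both also after rescaling, and Casp1 was not called.

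Genes of feedback on MAP kinase and NF-kappaB signalling moved in both directions. Of 19 MAP kinase phosphatases and mRNA decay factors 11 rose and 3 fell, with a median of 1.48. Dusp1, a nuclear phosphatase of p38 and JNK, had 182.4, 220 and 181.5 TPM in Tfeb-Tg MSUc libraries and 28.2, 26.82 and 32.07 TPM in Tfeb-Tg PBS libraries, and Dusp10, of similar substrates, had 27.95, 29.58 and 33.03 TPM with MSUc and 0.996, 2.017 and 1.661 TPM with PBS. Dusp6, which acts on ERK, fell by 1.16. Of 23 NF-kappaB subunits and brakes 11 rose and 6 fell, with a median of 0.22, and after rescaling 15 rose and 3 fell. Tifab fell by 2.81, and 3 other brakes, Cyld, Nfkbid and Irak3, fell by 0.62, 0.52 and 0.51 and did not pass the test after rescaling. The kinase genes Ikbke and Ikbkb fell by 0.89 and 0.65, and these and Tifab were the falls that also passed after rescaling. The largest rise was that of Tnfaip3, the ubiquitin-editing brake A20, with 103.2, 90.21 and 88.75 TPM with MSUc and 15, 14.47 and 13.82 TPM with PBS.

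The promoter of the upstream of 2 Tnfaip3 starts in the RefSeq table (GRCm38.p6, chr10:19015361-19015660, minus strand) is shown because it holds the longer E-box and lies inside a region that gained H3K27ac. Capitals mark CACGTG, which begins 33 bases upstream of the start.
Tnfaip3: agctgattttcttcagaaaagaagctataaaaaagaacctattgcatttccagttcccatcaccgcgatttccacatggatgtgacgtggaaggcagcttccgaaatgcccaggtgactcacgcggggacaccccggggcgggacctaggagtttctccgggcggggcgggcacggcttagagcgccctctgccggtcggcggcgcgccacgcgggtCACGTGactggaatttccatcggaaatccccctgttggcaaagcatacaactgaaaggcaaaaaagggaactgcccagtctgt

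The inducible and constitutive cyclooxygenases moved in opposite directions. Of 11 genes for prostaglandin and leukotriene synthesis 2 rose and 3 fell, and after rescaling 7 rose and 3 fell. Ptgs2, the inducible cyclooxygenase, had 21.4, 18.63 and 20.39 TPM in Tfeb-Tg MSUc libraries and 1.014, 0.598 and 1.117 TPM in Tfeb-Tg PBS libraries, while Ptgs1, the constitutive form, had 4.263, 6.05 and 3.874 TPM with MSUc and 8.391, 11.75 and 14.16 TPM with PBS. Of 12 coagulation and plasminogen genes 8 rose and 1 fell, with a median of 1.39. Procr, the endothelial protein C receptor, had 154.3, 165.1 and 160.9 TPM with MSUc and 16.37, 13.9 and 12.73 TPM with PBS, and Plau, urokinase, changed by 2.16 ± 0.07. Thbd, thrombomodulin, was the 1 that fell, by 1.36.

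As deposited, antioxidant and integrated stress genes rose in most members, and synthetase and heat shock genes in fewer. After rescaling, most members of each of these lists rose. NRF2 is the factor that raises antioxidant genes, and of 22 of its targets 15 rose and 3 fell, with a median of 0.81, and after rescaling 16 rose and 1 fell. Slc7a11, the cystine importer, had 53.64, 41.06 and 42.98 TPM in Tfeb-Tg MSUc libraries and 2.937, 2.818 and 3.945 TPM in Tfeb-Tg PBS libraries, and Hmox1, heme oxygenase 1, had 871.7, 1094 and 958.4 TPM with MSUc and 199.1, 198.6 and 186.4 TPM with PBS. The 3 that fell were Gpx4, G6pdx and Fth1, by 0.45, 0.48 and 0.15. After rescaling, neither Gpx4 nor Fth1, ferritin heavy chain, passed the test, and the change of Fth1 was 0.13. Of 21 genes of the integrated stress response, which is driven by ATF4 when translation initiation is blocked, 15 rose and none fell. After rescaling 18 of them rose and none fell. Atf4 had 388.4, 377 and 418.1 TPM with MSUc and 127.5, 138.9 and 152.7 TPM with PBS, and Ppp1r15a, which ends the response, changed by 2.34 ± 0.14. Of 20 aminoacyl-tRNA synthetases 9 rose and 3 fell, and after rescaling 11 rose and 1 fell, with Rars at 1.38 as deposited. Of 12 heat shock genes 5 rose and none fell, and after rescaling 8 rose and none fell. As deposited, Hsp90aa1 changed by 1.32 ± 0.10, and Hspa1a, whose reads are shared with its near copy Hspa1b, by 1.44. Of 5 metallothionein and zinc transporter genes 4 rose, led by Slc30a1, the zinc exporter, at 1.65 ± 0.12.

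Genes of glucose use mostly rose and genes of cholesterol synthesis mostly fell as deposited. Of 23 genes of glycolysis and glucose uptake 14 rose and 3 fell, with a median of 0.45, and after rescaling 17 rose and 1 fell. Slc2a1, the glucose transporter GLUT1, had 159.2, 171.2 and 215.3 TPM in Tfeb-Tg MSUc libraries and 27.87, 28.39 and 31.53 TPM in Tfeb-Tg PBS libraries, and Pfkfb3, which makes the activator of phosphofructokinase, had 60.63, 52.6 and 47.84 TPM with MSUc and 9.68, 9.603 and 8.858 TPM with PBS. Pfkm, the muscle form of phosphofructokinase, fell by 1.15. Of 21 genes of cholesterol synthesis and uptake 3 rose and 13 fell, with a median of -0.56, and after rescaling 4 rose and 8 fell. Stard4, a sterol transfer protein, had 9.874, 6.829 and 6.951 TPM with MSUc and 16.48, 16.34 and 17.89 TPM with PBS. Those that rose included Sqle, squalene epoxidase, and Insig1, which retains the regulator SCAP in the endoplasmic reticulum.

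Of 20 genes of lipid efflux and fatty acid carriage 5 rose and 8 fell, near the 35.0% of all genes tested that fell, and after rescaling 7 rose and 5 fell. Abcg1, a sterol exporter, had 26.25, 29.58 and 25.98 TPM in Tfeb-Tg MSUc libraries and 86.36, 91.84 and 84.7 TPM in Tfeb-Tg PBS libraries, and Nr1h3, the liver X receptor alpha that drives sterol export, fell by 0.98. Fabp4 rose by 1.26 ± 0.12 and Spp1, osteopontin, had 9146, 7414 and 8377 TPM with MSUc and 4012, 3935 and 4547 TPM with PBS. Of 14 genes that restrain mTORC1 or belong to AMPK 2 rose and 7 fell, and after rescaling 4 rose and 6 fell. Sesn1, a leucine sensor, had 14.24, 9.556 and 11.74 TPM with MSUc and 45.31, 44.74 and 51.35 TPM with PBS, and Camkk2, a kinase that activates AMPK, fell by 1.33. Of 11 genes around itaconate and polyamines 6 rose and 1 fell (7 and none after rescaling), among the rises Acod1, which makes itaconate, at 1.50 ± 0.12 and Odc1, which begins polyamine synthesis, at 1.74 ± 0.13.

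Transcripts that mark macrophages or sense microbes mostly fell as deposited. Of 21 macrophage identity genes 2 rose and 14 fell, with a median of -0.46, and after rescaling 3 rose and 10 fell. Maf, a lineage factor, had 23.33, 14.32 and 19.46 TPM in Tfeb-Tg MSUc libraries and 76.33, 70.41 and 93.68 TPM in Tfeb-Tg PBS libraries, and Mertk, a receptor for apoptotic cells, had 2.531, 2.191 and 3.789 TPM with MSUc and 13.82, 15 and 16.19 TPM with PBS. Cd14, the co-receptor for lipopolysaccharide, and Mrc1, the mannose receptor, were the 2 that rose, by 0.63 and 0.39. Of 11 Toll-like receptor genes and adaptors none rose and 7 fell, with a median of -0.89, and after rescaling 1 rose and 7 fell. Tlr9, a receptor for DNA, had 3.238, 3.858 and 2.407 TPM with MSUc and 12.04, 14.43 and 11.85 TPM with PBS, and Tlr4, the lipopolysaccharide receptor, fell by 1.39. All 3 complement C1q genes fell, by 0.33 to 0.47, and none of them passed the test after rescaling.

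Antigen presentation and interferon genes were mixed. Of 10 genes for class II presentation 2 rose and 3 fell, and after rescaling 6 rose and 1 fell. Cd86, a co-stimulator, had 42.45, 31.32 and 34.78 TPM in Tfeb-Tg MSUc libraries and 14.31, 11.3 and 15.49 TPM in Tfeb-Tg PBS libraries, and Ciita, the master regulator of class II genes, fell by 0.94. Of 27 interferon-stimulated genes 8 rose and 5 fell, with a median of -0.10, and after rescaling 9 rose and 2 fell. Rsad2, the antiviral enzyme viperin, had 37.77, 42.34 and 48.08 TPM with MSUc and 8.359, 8.487 and 10.91 TPM with PBS, and Stat2, which carries the type I interferon signal, fell by 0.74.

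Of 30 cell cycle genes 1 rose and 17 fell, beside 12.5% and 35.0% of all genes tested, with a median of -0.44 beside -0.28, and after rescaling 4 rose and 7 fell. The 1 that rose was Cdkn1a, the cyclin-dependent kinase inhibitor p21, with 121.8, 152.6 and 126.8 TPM in Tfeb-Tg MSUc libraries and 59.7, 55.36 and 55.2 TPM in Tfeb-Tg PBS libraries. Of 15 BCL2 family genes 5 rose and 3 fell, and after rescaling 8 rose and 3 fell. Bcl2l1, which encodes the survival protein BCL-XL, had 125.8, 138 and 147.6 TPM with MSUc and 51.3, 52.22 and 51.87 TPM with PBS, while Bcl2l11, the killer BIM, fell by 1.14 and Bmf by 3.06. Bhlhe40, a repressor that also acts in the clock, had 233.9, 253.9 and 235.2 TPM with MSUc and 49.26, 53.37 and 48.52 TPM with PBS, and of its list of 12 clock genes 7 rose and 2 fell. Of 13 genes for DOT1L and elongation 5 rose and 3 fell, and after rescaling 7 rose and none fell. Dot1l, the H3K79 methyltransferase, changed by 1.32 ± 0.10 and Eaf1, an ELL partner, by 1.53 ± 0.07.

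**Figure D2:**
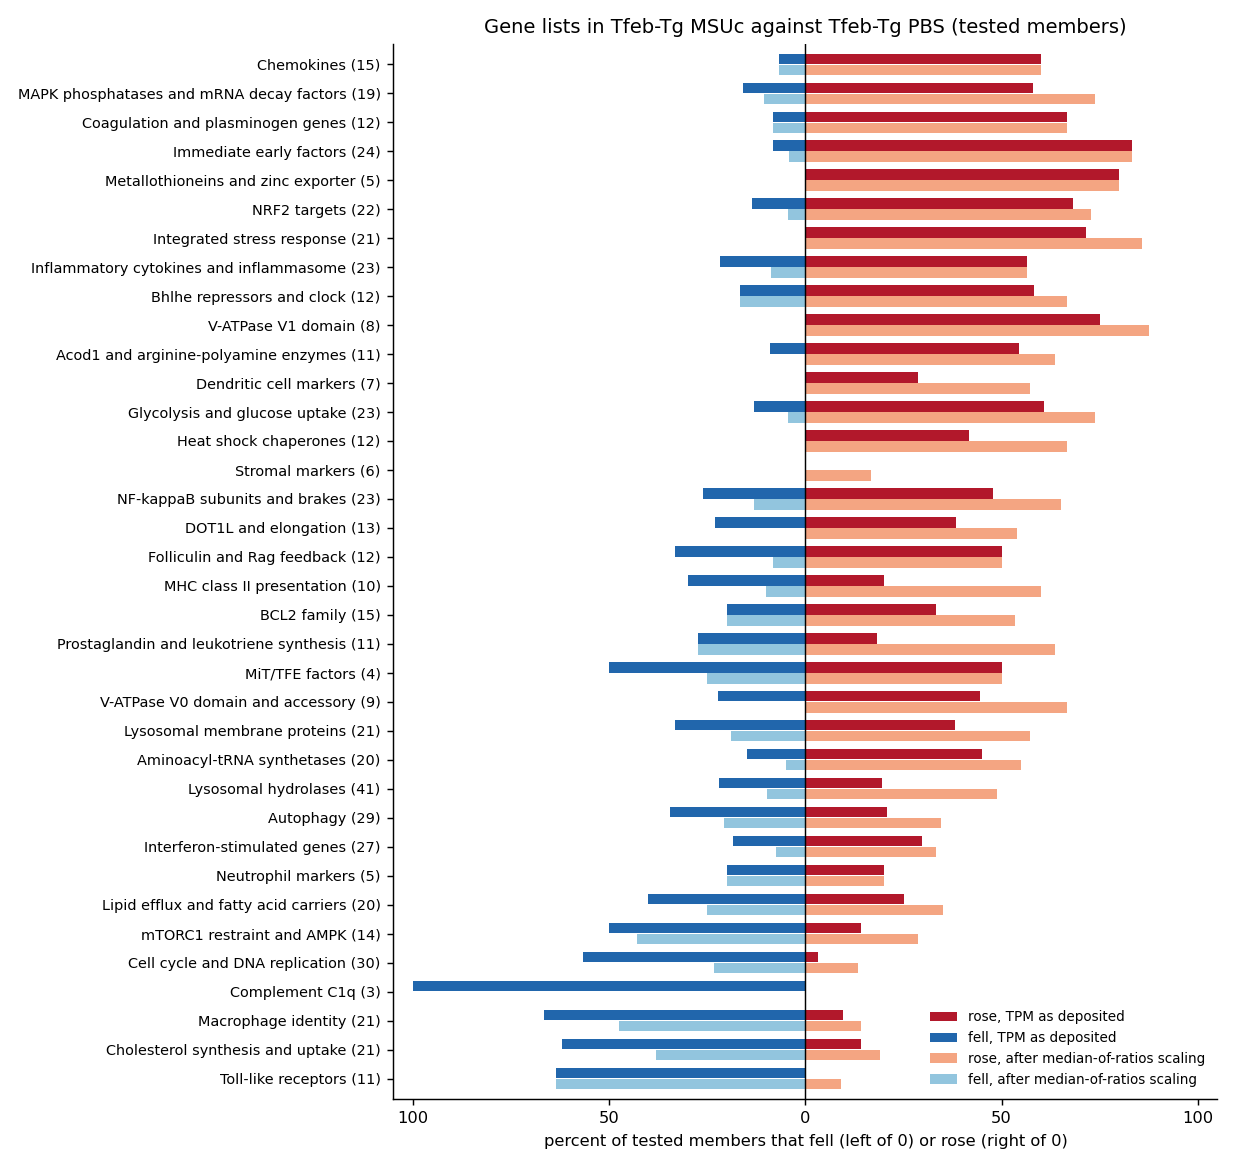
Percent of the tested members of each gene list (number tested in brackets) that rose (bars right of 0) or fell (bars left of 0) after MSUc in Tfeb-Tg cells, as deposited (dark) and after rescaling (light), in order of median change. Chemokines, of which 9 of 15 rose, stand at the top, and Toll-like receptors, of which 7 of 11 fell, at the bottom.

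Markers of other cell types were low and few. Of 12 neutrophil markers 5 were tested, and their list summed to 32.8 to 35.2 TPM in Tfeb-Tg MSUc libraries and 41.4 to 45.3 TPM in Tfeb-Tg PBS libraries. Ly6g, which defines neutrophils, was listed at 0 in all 6 Tfeb-Tg libraries. S100a8 rose by 0.92 and Csf3r fell by 1.36. The dendritic cell list summed to 23.1 to 38.6 TPM with MSUc and 17.0 to 18.5 TPM with PBS, and of 7 tested Xcr1 and Ccl22 rose, with Xcr1 at 3.838, 3.315 and 3.498 TPM with MSUc and 0.13, 0.04 and 0 TPM with PBS. Stromal markers summed to 15.4 to 19.4 TPM with MSUc and 13.2 to 14.1 TPM with PBS, with no gene of 6 called. Lymphocyte markers summed to 11.4 to 17.8 TPM with MSUc and 17.0 to 20.3 TPM with PBS, most of it Cd4, with Cd79a and Pax5 among those listed at 0 in all 6 and Cd79b at -1.40, which did not pass after rescaling. Mast cell markers summed to at most 1.99 TPM with MSUc and 0.6 TPM with PBS. The part of these cells in the response was not tested.

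The response of Tfeb-Tg cells was close in kind to that of TfebWT cells. In TfebWT cells 1507 genes rose (12.6%) and 3948 fell (32.9%). Of the rises in Tfeb-Tg cells 81.5% were rises in TfebWT cells, and of those in TfebWT cells 81.2% were rises in Tfeb-Tg cells, 1224 genes in all. For falls the shares were 75.6% and 80.4%, 3176 genes in all, and 4 genes were called in opposite directions. Across genes, which are not independent replicates, the changes had a Pearson r of 0.837. The 2 comparisons share no library, but both use the same estimate of each gene's spread, so their calls are not independent. Of the 24 immediate early genes 20 rose in each genotype, and of the 21 integrated stress genes 15 rose in Tfeb-Tg and 14 in TfebWT cells. Among lists with at least 10 genes tested, the largest median of the per-gene differences was in interferon-stimulated genes, at 0.38. Of these genes 8 rose and 5 fell in Tfeb-Tg cells and 2 rose and 9 fell in TfebWT cells, though no member passed the test of the difference. The 6 stromal markers tested had a median difference of -0.52, also with no member called, and 3 rose in TfebWT cells. Stromal markers summed to 35.23 to 57.71 TPM in TfebWT MSUc libraries, against 15.39 to 19.39 TPM in Tfeb-Tg MSUc libraries. The part of stromal cells in the differences was not tested.

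**Figure D3:**
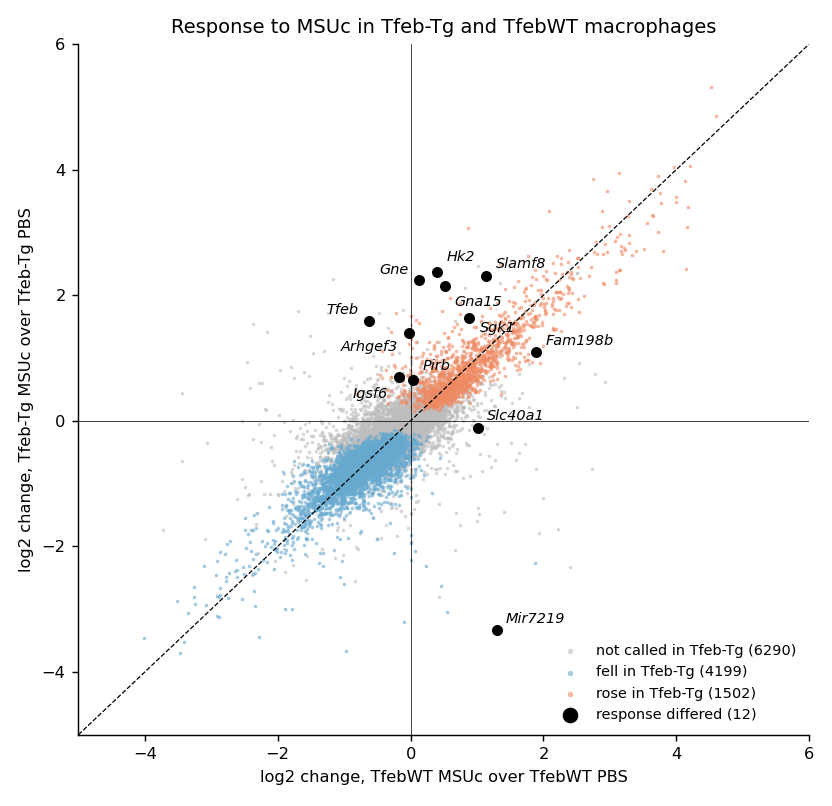
Log2 change after MSUc of 11991 genes in Tfeb-Tg cells (vertical axis) against the change in TfebWT cells (horizontal axis), with the line of equal change. The 12 genes whose responses differed are named in black, 9 of them above the line.

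The difference between the responses, tested as an interaction, was called in 12 genes (0.1% of those tested), 9 with a higher and 3 with a lower response in Tfeb-Tg cells. At an unadjusted p under 0.05 there were 779. The median SE of a difference was 0.24, against 0.16 for a change within Tfeb-Tg cells. The count was 6 without Tfeb-Tg PBS replicate 1, 6 without Tfeb-Tg PBS replicate 2 and 7 without Tfeb-Tg PBS replicate 3. It was 5 without TfebWT MSUc replicate 1, 6 without TfebWT MSUc replicate 3, 5 without TfebWT PBS replicate 1 and 4 without TfebWT PBS replicate 2. With the replicate number as a block it was 6, and by limma-voom on recovered reads 41. With TfebWT MSUc replicate 3 taken as PBS it was 3, and the TfebWT response itself was called in 1 gene.

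Hk2 was the gene whose difference passed under all 19 alternatives. It encodes hexokinase 2, which commits glucose to glycolysis and is found on mitochondria. Hk2 had 119.3, 120.2 and 105.8 TPM in Tfeb-Tg MSUc libraries and 22.47, 21.77 and 20.09 TPM in Tfeb-Tg PBS libraries. TfebWT cells had 30.40, 30.25 and 35.70 TPM with MSUc and 26.32 and 21.80 TPM with PBS. The PBS levels of the genotypes overlapped, and the MSUc levels of Tfeb-Tg cells stood above all others. The change was 2.37 ± 0.10 in Tfeb-Tg cells and 0.40 ± 0.12 in TfebWT cells, a difference of 1.97 ± 0.16 (limma adjusted p = 0.000601). Hk2 was the only member of the glycolysis list with a difference called. Slc2a1 and Pfkfb3 changed by 2.59 and 2.39 in Tfeb-Tg cells and by 2.52 and 2.04 in TfebWT cells.

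Gne and Slamf8 followed the same shape at lower levels. Gne, the rate-limiting enzyme of sialic acid synthesis, had 24.87, 30.03 and 24.49 TPM in Tfeb-Tg MSUc libraries and 5.311, 5.200 and 3.913 TPM in Tfeb-Tg PBS libraries, against 3.958, 4.090 and 5.338 TPM in TfebWT MSUc and 3.649 and 4.323 TPM in TfebWT PBS libraries. It changed by 2.25 ± 0.16 in Tfeb-Tg cells and 0.13 ± 0.18 in TfebWT cells, a difference of 2.12 ± 0.24 (limma adjusted p = 0.00657), which passed under 18 of the 19 alternatives. Slamf8, a surface receptor of myeloid cells that dampens their oxidase, had 55.91, 57.58 and 61.14 TPM in Tfeb-Tg MSUc libraries and 10.07, 11.58 and 11.16 TPM in Tfeb-Tg PBS libraries. TfebWT cells had 20.06, 22.63 and 22.31 TPM with MSUc and 9.279 and 9.235 TPM with PBS. It rose in both genotypes, with a difference of 1.17 ± 0.14 (limma adjusted p = 0.0103) that passed under 16 of 19.

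The promoters of Hk2 (GRCm38.p6, chr6:82774405-82774704, minus strand) and Slamf8 (chr1:172590519-172590818, minus strand) are shown because the differences of these genes passed under 19 and 16 of the alternatives and 1 of the promoters holds the E-box. The Hk2 window has no CACGTG, which says only that these letters are not in it. In Slamf8, capitals mark CACGTG, which begins 157 bases upstream of the start.
Hk2: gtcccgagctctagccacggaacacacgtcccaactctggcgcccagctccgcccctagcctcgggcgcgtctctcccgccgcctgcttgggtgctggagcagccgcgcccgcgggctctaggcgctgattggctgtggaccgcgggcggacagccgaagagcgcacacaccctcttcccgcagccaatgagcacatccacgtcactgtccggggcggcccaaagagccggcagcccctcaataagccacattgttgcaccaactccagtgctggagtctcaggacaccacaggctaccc
Slamf8: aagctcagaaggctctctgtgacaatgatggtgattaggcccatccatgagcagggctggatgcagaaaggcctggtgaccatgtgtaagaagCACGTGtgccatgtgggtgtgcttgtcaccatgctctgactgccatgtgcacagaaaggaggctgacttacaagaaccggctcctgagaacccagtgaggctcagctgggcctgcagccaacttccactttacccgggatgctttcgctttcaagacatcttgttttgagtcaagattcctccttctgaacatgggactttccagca

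Tfeb itself differed by 2.21 ± 0.19 (limma adjusted p = 0.00086), rising in Tfeb-Tg and falling in TfebWT cells. The other 5 genes with a higher response in Tfeb-Tg cells were less steady. Gna15, a G protein alpha subunit of haematopoietic cells, had 42.18, 56.28 and 51.89 TPM in Tfeb-Tg MSUc libraries and 12.38, 11.36 and 8.212 TPM in Tfeb-Tg PBS libraries, against 16.20, 15.59 and 15.70 TPM in TfebWT MSUc and 10.99 and 10.44 TPM in TfebWT PBS libraries. Its difference of 1.62 ± 0.22 passed under 9 of 19 alternatives. Sgk1, a kinase of the AKT group, had 306.3, 296.4 and 272.8 TPM in Tfeb-Tg MSUc libraries and 93.19, 85.84 and 100.6 TPM in Tfeb-Tg PBS libraries, against 205.2, 192.1 and 189.1 TPM in TfebWT MSUc and 104.4 and 107.1 TPM in TfebWT PBS libraries. The MSUc values of the genotypes did not overlap, and its difference of 0.76 ± 0.11 passed under 8 of 19.

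Arhgef3, Igsf6 and Pirb had a response called in Tfeb-Tg cells and none in TfebWT cells. Arhgef3, an exchange factor for RhoA, averaged 22.64 ± 0.85 TPM in Tfeb-Tg MSUc and 7.945 ± 0.49 TPM in Tfeb-Tg PBS libraries (SD, n = 3 each), and 6.186 ± 1.02 TPM in TfebWT MSUc (n = 3) and 6.311 ± 0.85 TPM in TfebWT PBS libraries (n = 2). Igsf6, an immunoglobulin superfamily receptor of myeloid cells, differed by 0.88 ± 0.14, and Pirb, an inhibitory receptor for class I molecules, by 0.60 ± 0.08. Pirb has near copies among the Pira genes, and how their reads were divided is not stated.

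Slc40a1 and Fam198b had a lower response in Tfeb-Tg cells, and PBS levels above those of TfebWT cells. Slc40a1 encodes ferroportin, the iron exporter, and had 62.18, 48.58 and 61.71 TPM in Tfeb-Tg MSUc libraries and 59.92, 61.99 and 63.31 TPM in Tfeb-Tg PBS libraries. TfebWT cells had 71.00, 82.78 and 73.57 TPM with MSUc and 37.69 and 36.49 TPM with PBS. The groups overlapped in Tfeb-Tg cells and not in TfebWT cells, and the difference was -1.12 ± 0.15 (limma adjusted p = 0.0209, passing under 9 of 19 alternatives). Fam198b, a Golgi glycoprotein gene, had 84.60, 82.61 and 82.43 TPM in Tfeb-Tg MSUc libraries and 36.51, 37.43 and 41.38 TPM in Tfeb-Tg PBS libraries, against 78.37, 73.49 and 77.69 TPM in TfebWT MSUc and 19.37 and 20.40 TPM in TfebWT PBS libraries. It rose in both, with a difference of -0.80 ± 0.11 that passed under 7 of 19. The remaining gene was Mir7219, a record of 53 bases listed at 0 in all 3 Tfeb-Tg MSUc libraries, outside the rule for named genes and given as its values in the closing section.

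**Figure D4:**
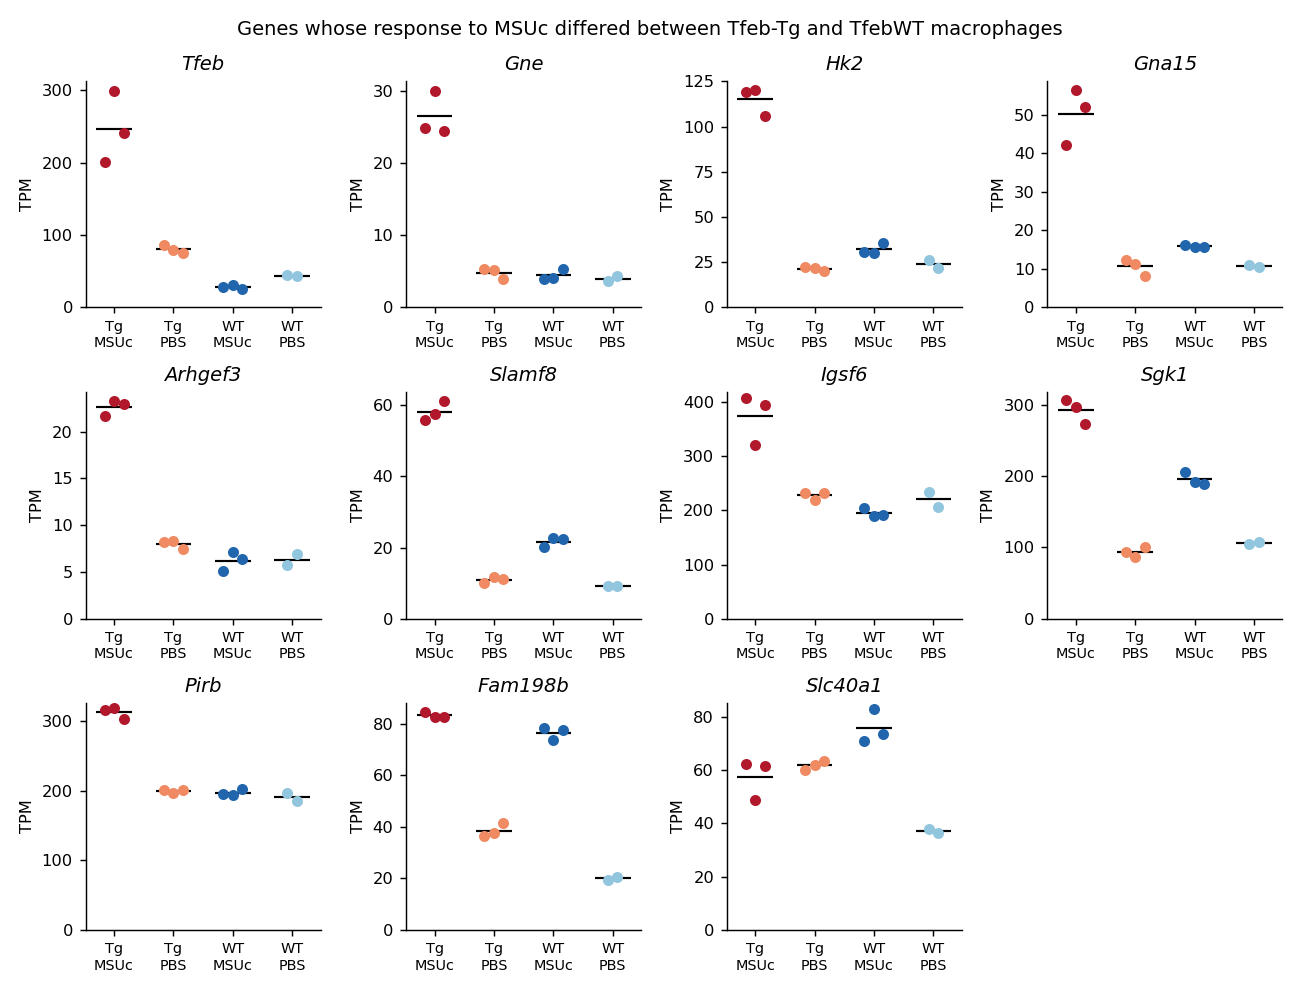
Levels in TPM, on a linear axis from 0, of 11 of the 12 genes whose response to MSUc differed between Tfeb-Tg and TfebWT cells (Mir7219 is not drawn). Each point is 1 library and each line a group mean, and Hk2 in Tfeb-Tg MSUc, at 105.8 to 120.2 TPM, lies above its other 3 groups.

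Regions from chromatin immunoprecipitation (ChIP-seq), all made in other cells, wild-type macrophages given MSUc or PBS, were set beside these genes by the nearest start site that the authors gave. Of genes that rose in Tfeb-Tg cells 43.9% were nearest to a peak that gained TFEB with MSUc, against 12.2% of genes that fell, 16.6% of those not called and 18.4% of all tested, from 5667 peaks. With MSUc, TFE3 has a single ChIP library in the series, where TFEB and DOT1L have more. For TFE3 the shares were 36.6% of genes that rose, 14.6% of those that fell and 17.0% of all tested. For DOT1L they were 40.7%, 9.3% and 14.8% in the same order, and for gained H3K27ac, a mark of active regulatory regions, 25.3%, 3.8% and 7.6%. Regions that lost H3K27ac ran the other way, with 4.3% of genes that rose, 12.9% of those that fell and 7.5% of all tested. No test was made of these shares, and regions of Tfeb-Tg cells were not analysed here.

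**Figure D5:**
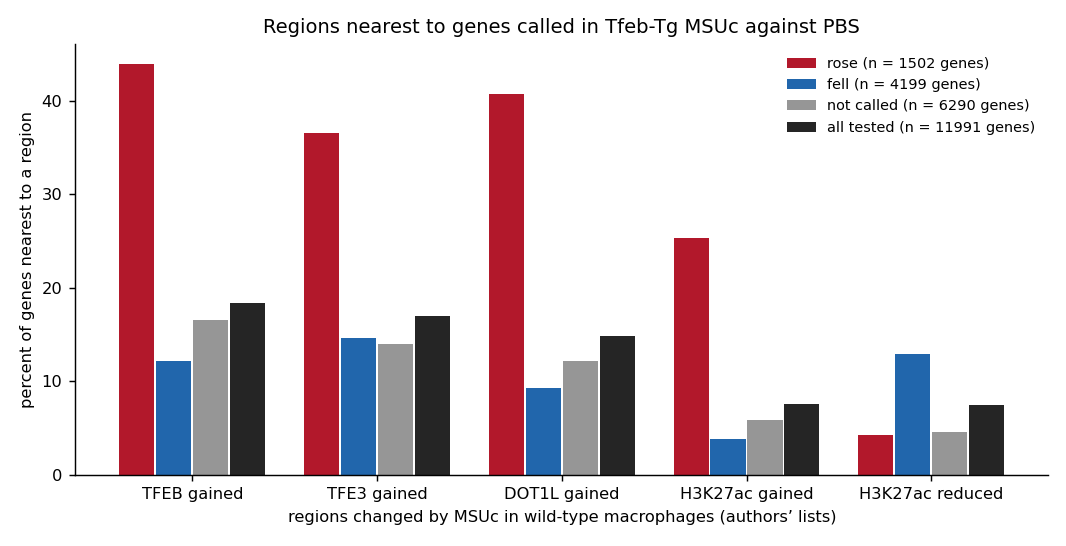
Percent of genes that rose, fell or were not called after MSUc in Tfeb-Tg cells, and of all tested, that are the nearest gene to a region the authors listed as gained or reduced with MSUc in wild-type macrophages. For gained TFEB peaks the bars stand at 43.9% for genes that rose and 12.2% for genes that fell.

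Near single genes these regions were uneven. Tnfaip3 had 12 gained TFEB peaks and Il1rn 5, the closest 3.6 kb from its start. Tfeb had 1 gained TFEB peak in an intron, at mm10 chr17:47757144-47757397, 19.3 kb from the start site in the authors' annotation, and 3 gained TFE3 peaks. Of genes whose response differed, Fam198b had 7, Arhgef3 7 and Slc40a1 3 gained TFEB peaks, while Hk2, Gne, Gna15, Slamf8 and Igsf6 were the nearest gene of no region in the 5 lists. In the authors' deposited table the H3K27ac region at the start of Il1rn changed by 2.29 on the log2 scale and that of Tnfaip3 by 1.37. The H3K27ac regions at the starts of Bmf, Cx3cr1 and Tnfaip8l2 changed by -1.66, -1.26 and -1.49 in the authors' deposited table. Sgk1, which rose, had a reduced H3K27ac region at its start at -1.39 in the same authors' deposited table. The listed peaks of TFEB, TFE3 and DOT1L all lie at least 3.0 kb from a start site, so none overlaps a promoter shown above.

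The most abundant transcripts of both groups were led by Fth1, with 17020.2, 17921.9 and 17970.4 TPM in Tfeb-Tg MSUc libraries and 20306.4, 19527.4 and 18984.5 TPM in Tfeb-Tg PBS libraries. Lyz2, lysozyme, had 7618, 7455 and 7662 TPM with MSUc and 10283, 10237 and 9912 TPM with PBS. Psap, the precursor of the saposins that help to degrade sphingolipids, had 6818, 7976 and 7151 TPM with MSUc and 7179, 7394 and 7054 TPM with PBS. The groups did not overlap in Fth1 and Lyz2 and overlapped in Psap. The change of Lyz2 was -0.42 ± 0.05 as deposited and -0.14, not past the test, after rescaling.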

How the data were processed

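Libraries were stranded (dUTP) and made from poly-A RNA, per the labels' protocols, and STAR, HOMER and mm10 are named in the submitters' processing notes without versions. The deposited values are TPM as far as they show, scaled by the authors to a fixed total over all transcripts, with 1 RefSeq transcript kept per gene symbol, so that the kept TPM sum to 536043 to 549228 per library. The header names no unit, and which transcript was kept is not stated. Each value times its transcript length was a whole multiple of 1 read within 0.15 read in at least 99.984% of values, which gave the read totals.

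A test for counts had been planned if the tables held them. As they hold TPM, limma 3.58.1 (R 4.3.3, trend) was fitted to log2(TPM + 1) as a model of 4 group means over 11 libraries, for genes with at least 1 TPM in at least 2 libraries. Comparisons were Tfeb-Tg MSUc against PBS, TfebWT MSUc against PBS, and the difference between these responses. The fit was tested on simulated data. Alternatives were other pseudocounts (0.1 and 5), other filters, median-of-ratios scaling, the compared groups alone, a replicate block, limma-voom on recovered reads, each library left out, and TfebWT MSUc replicate 3 as PBS. The labels give no batch. The 10 pairs of libraries within groups were compared by chi-square (lowest 5.178 per degree of freedom).

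The gene lists and the members were chosen with earlier results of these data known. Named genes are Tfeb, Tfe3, Mitf and Tfec; the 10 most raised and 10 most lowered genes among those called with a size of 1 or more on the log2 scale, 5 TPM or more on average, groups that did not overlap, an NM accession and 300 bases or more; the 4 largest changes of each list; the differences called, up to 10 in each direction; and the 5 most abundant genes of each group. Other list members were picked for the text after their values were seen, and some genes that met the rule are not reported here.

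Peaks gained with MSUc (TFEB, TFE3, DOT1L) were annotated by the authors with HOMER, per the file headers, which give a distance score in bases to the nearest start site, while the peak caller and any pooling of replicates are not given in the sources used here. For H3K27ac tags were counted around accessible sites and the authors deposited a log2 change, per the file headers. Shares were counted for peaks at any distance and within 50 kb. Promoters came from RefSeq and matched 132 of 174 named genes. Tables were handled with pandas 2.3.3 and numpy 2.4.6 under Python 3.11.15, and plots drawn with matplotlib 3.10.9.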

Additional observations from a re-analysis of the deposited data

Results flagged for a closer look

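The response to MSUc differed between Tfeb-Tg and TfebWT cells, by limma's test of the difference itself, in 12 genes. As Tfeb-Tg response minus TfebWT response on the log2 scale, the 9 positive differences were 2.21 for Tfeb, 2.12 for Gne, 1.97 for Hk2, 1.62 for Gna15, 1.43 for Arhgef3, 1.17 for Slamf8, 0.88 for Igsf6, 0.76 for Sgk1 and 0.60 for Pirb. The 3 negative differences were -0.80 for Fam198b, -1.12 for Slc40a1 and -4.63 for Mir7219. In each of the 9 genes with a positive difference all 3 Tfeb-Tg MSUc values lay above the values of the other 8 libraries. These genes were called by a test on the same libraries, so this separation adds no further support. The share of all genes tested with such a separation was not counted. Mir7219 was listed at 0 in all 3 Tfeb-Tg MSUc libraries and at 8.728, 5.580 and 14.91 TPM in Tfeb-Tg PBS libraries, against 17.72, 27.13 and 12.34 TPM in TfebWT MSUc and 9.796 and 4.646 TPM in TfebWT PBS libraries. It is a record of 53 bases, far shorter than the fragments of a usual library, and its fitted difference ran from -7.917 to -2.475 over the alternatives. The gene was named after its values were seen.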

How the results depend on the processing

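The direction of the response in Tfeb-Tg cells, with more falls than rises, held as deposited and turned under median-of-ratios scaling, to 2451 higher and 1980 lower in Tfeb-Tg and 2412 higher and 1973 lower in TfebWT cells. Scaling took the median change of all genes to -0.04 in Tfeb-Tg cells, against -0.28 as deposited. With TfebWT MSUc replicate 3 taken as PBS, Tfeb-Tg calls were 3265 (947 higher, 2318 lower), the difference 3 (2 higher, 1 lower) and TfebWT calls 1 (0 higher, 1 lower, with 2607 at an unadjusted p under 0.05). The cause was not tested. By limma-voom the difference held 41 genes (33 higher, 8 lower). Leaving out 1 library at a time gave 4655 to 5701 calls in Tfeb-Tg cells (1305 to 1497 higher, 3350 to 4211 lower), 3764 to 5808 in TfebWT cells (1145 to 1585 higher, 2521 to 4223 lower) and 4 to 12 in the difference (3 to 8 higher, 1 to 4 lower). In TfebWT cells the 2521 falls were without PBS replicate 1, which leaves 1 library assumed to vary like the others. With the group mean of each gene subtracted, same-numbered Tfeb-Tg MSUc and PBS libraries correlated at -0.032, 0.186 and 0.033. Tfeb-Tg libraries of unlike number ran from -0.193 to 0.137. The labels do not say that a number marks a shared animal or day, so the replicate numbers were not taken as pairs. With a replicate block the difference was called in 6 genes (5 higher, 1 lower) and the Tfeb-Tg response in 1529 higher and 4275 lower. Scaling turned the sign of the uncalled or small Tfeb-Tg changes of Cd4 to 0.202, Ctsd to 0.277, Fth1 to 0.128, Ftl1 to 0.141 and Slc40a1 to 0.167. Without single libraries Cd4 ran from -0.233 to 0.149, Ctsd from -0.059 to 0.06, Ftl1 from -0.23 to 0.021, Psap from -0.046 to 0.067 and Slc40a1 from -0.17 to 0.005. Of the other alternatives for single named genes 3488 kept direction and side of the threshold, 169 lost the call and 18 gained one. Within 50 kb of a start site, gained TFEB peaks were nearest to 39.5% of genes that rose and 9.6% of those that fell. Depth, 5.75 M reads in the shallowest library, limits genes of low TPM.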
